A study of Caenorhabditis elegans with 4 samples.

Results

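Focal binding sites of the meiotic cohesin subunit COH-3 were examined in adult Caenorhabditis elegans. A focal site is a narrow peak, under 1200 bp wide, of the series-wide peak list that shared at least 1 bp with a peak of both ChIP replicates. Of the 7495 nuclear peaks of that list, 1041 (13.9%) were found in both replicates at any width. Of its 6965 peaks under 1200 bp, 648 (9.30%) were, and these 648 are the focal sites. They were therefore chosen by peak calls and peak widths in the same libraries that are described here, and their number, width and presence in both replicates are no findings.

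The study profiled fem-2(b245) hermaphrodites, kept at 20 °C, by chromatin immunoprecipitation and sequencing (ChIP-seq). All libraries share a fixation in 2 steps, in which the protein crosslinker EGS acted for 20 min and EGS together with formaldehyde for 10 min more. It held 2 ChIP libraries made with a polyclonal antibody raised in rabbit against COH-3 and 2 libraries of input DNA, all from animals of this genotype. Loss of the sex determination gene fem-2 feminizes the germ line, and whether it did so in these animals was not assessed here. The stage label names a young adult with a germ line, whereas the growth protocol names gravid adults. Whole animals were used, so a site is not tied to a tissue. The labels do not say whether the replicates came from separate cultures, so the spread between them may be technical.

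Cohesin is a ring-shaped complex that holds sister chromatids together, and its kleisin subunit closes the ring. In the worm germ line, COH-3 and its close paralog COH-4 are kleisins of meiotic prophase that act beside REC-8 and are needed to build the axes along which homologous chromosomes pair. Whether the antibody tells COH-3 from COH-4 was not assessed here. The autosomes of this species have a gene-dense middle and repeat-rich arms that recombine more often, and the X chromosome is largely silent through much of germline meiosis.

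The rule bounds the width of the focal sites and brings the replicate peaks close to each other, so the following values describe the sites and are no result. Their median width was 572 bp (quartiles 386.5 and 805.5 bp), and together they covered 400.5 kb, or 0.399% of the nuclear sequence. At 612 of the 648 sites, exactly 1 peak of each replicate overlapped. The midpoints of the highest-scoring overlapping peaks of replicates 1 and 2 lay a median of 54.2 bp apart, and at 556 sites (85.8%) they lay within 200 bp of each other. The overlapping peak was wider in replicate 2, with a median of 562 bp against 393.5 bp in replicate 1. It reached 1200 bp or more at 52 sites in replicate 2 and at 10 in replicate 1, so some focal sites were parts of wider peaks in 1 library. The site with the lowest width, 146 bp, lay on chromosome IV from 9764664 to 9764809 (WormBase WS220) and had a score of 1.99. Just inside the width limit were 3 sites on chromosome V of 1199, 1195 and 1192 bp, with scores of 19.97, 17.14 and 35.42. Just outside it were peaks of 1200 bp on II and of 1206 bp on IV and on V, with scores of 21.62, 43.0 and 41.61.

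Each peak carries a score given by the authors' peak caller, whose scale the files do not name. It serves here only to rank peaks within a list. The focal sites had a median score of 23.84 in the series-wide list (quartiles 15.29 and 37.23, range 1.90 to 171.57). Narrow peaks not found in both replicates had a median of 5.53, and peaks of 1200 bp or more found in both had 42.86. Recurrence and score come from the same calls, so this order is a description.

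X and IV held most of the strongest focal sites, and the other chromosomes joined them further down the order. Of the 20 with the highest score, 9 were on X, 8 on IV and 3 on II, and none lay on I, III or V. The highest 50 fell on all chromosomes, with 18 on X, 13 on IV, 6 on I, 6 on II, 4 on III and 3 on V. In the highest 100, IV held 28, X 24, I 16, V 13, II 12 and III 7. The highest score of a focal site, 171.57, was that of a 793 bp site on chromosome II from 2378315 to 2379107. It was also near the top of both replicates, with scores of 3171.18 in replicate 1 and 3100 in replicate 2. The value 3100 was shared by 31 peaks in replicate 1 and by 118 in replicate 2. The next site, with a score of 166.04, was 940 bp wide on X from 11093658 to 11094597, and its scores were 3100 in replicate 1 and 1598.99 in replicate 2.

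Chromosome IV held a pair of strong neighbours at each of 2 places. A 489 bp site from 4725363 to 4725851 had a score of 152.49, with 633.65 in replicate 1 and 1340.10 in replicate 2. Its neighbour from 4727749 to 4728396, with a score of 142.58, began 1897 bp after it ended. A further site, from 4720355 to 4720963 with a score of 110.14, lay 4399 bp before the pair. The other pair spanned 3311169 to 3311621 and 3313250 to 3313948, with scores of 140.63 and 150.5 and a gap of 1628 bp. All 4 sites of the pairs were called as separate peaks in each replicate. The remaining sites among the highest 10 were 1 on IV from 9196013 to 9197200 (score 139.12) and 3 on X. Those on X ran from 6296164 to 6296931 (147.97), from 14525327 to 14526326 (147.51) and from 1626902 to 1627532 (138.69).

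The strong sites of X and IV ranked differently in the replicates. In replicate 1, the 9 sites of X among the highest 20 had scores of 1802.62 to 3117.19 (median 2993). The 8 sites of IV had 470.1 to 1028.84 (median 706.9). The highest replicate 1 score of the 20, 3171.18, was on II. Over all nuclear peaks of replicate 1, the median score percentile was 56.4 on X and 48.4 on the autosomes. The same value for IV, and the upper range of all peaks on X and on IV, are not given here. In replicate 2 the scores were 782.73 to 1598.99 on X (median 1107.79) and 898.7 to 1743.89 on IV (median 1285). All 20 sites were nevertheless high in both lists. They stood at or above the 85.8th percentile of the scores of replicate 1 and the 86.5th of replicate 2, and the midpoints of their replicate peaks differed by 2.5 to 161 bp. On the other chromosomes, the highest focal sites were those on V from 6088685 to 6089535 with a score of 114.7, on I from 22192 to 22539 with 111.32, and on III from 154198 to 154560 with 95.21. Those on I and III thus lay 22.2 and 154.2 kb from the left end of their chromosome.

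Across all focal sites, X had the highest median score of the 6 chromosomes. Its 88 sites had a median of 31.11 (quartiles 21.3 and 54.95), against 22.83 (14.6 and 35.5) for the 560 autosomal sites. This difference of 8.28 was smaller among all series-wide narrow peaks that overlapped a given replicate, whatever the other replicate held. It was 0.09 (95% interval -1.68 to 1.96) when replicate 1 alone was required and 3.16 (0.35 to 6.67) when replicate 2 alone was. These intervals are those of the X median and leave out the error of the autosomal median. The 2 larger sets also had lower median scores, 14.85 and 10.19, so their differences are not on the same level as 8.28. Narrow peaks found in replicate 1 only had medians of 10.03 on X and 7.055 on the autosomes. Those found in replicate 2 only had 7.87 and 8.53. Among focal sites, the medians of single autosomes ran from 18.64 on III to 25.77 on IV. X sites were narrower, with a median of 481 bp against 593.5 bp on the autosomes. Within X, however, the higher-scoring sites tended to be the wider ones (Spearman's rho 0.56). X held 36% of the 50 highest-scoring focal sites and 13.6% of all focal sites. With a width limit of 800 bp it held 12 of the highest 50 instead of 18. When the sites were ranked by score and split into 4 score classes of 162 sites, the share on X was 6.17% in the lowest class (95% Clopper-Pearson interval 3.00 to 11.1), 11.7% and 16.0% in the next 2, and 20.4% (14.5 to 27.4) in the highest. Such intervals cover counting error only, and neighbouring sites are not independent. With 2 ChIP libraries, and with sites that were chosen by the calls of both, no test was made of any difference described here.

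**Figure D1:**
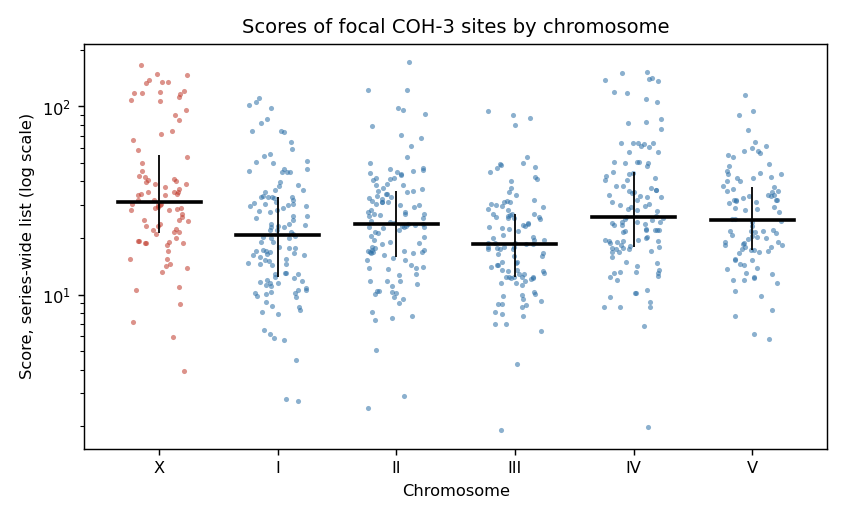
Score of each focal site in the series-wide list (log axis) by chromosome, with X in red and the autosomes in blue. Thick bars are medians and thin lines join the quartiles; the median is highest on X (31.11) and lowest on III (18.64).

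Focal sites on X ranked above those of the autosomes in replicate 1 and not in replicate 2. For each focal site, the score of its highest overlapping peak was expressed as a percentile of all nuclear peaks in that replicate's own list. In replicate 1, X sites had a median percentile of 79.0 (quartiles 55.6 and 91.5) and autosomal sites 50.03 (26.8 and 71.9), and X was the highest of the 6 chromosomes. In replicate 2, X sites had a median of 52.3 (20.7 and 83.6) and autosomal sites 66.5 (41.2 and 81.2), and X was the lowest. This difference of -14.2 is less certain, as the 95% interval of the X median places it between -24.0 and 3.78, and it was -1.52 when replicate 2 alone was required. The difference in replicate 1, 28.9 (17.6 to 35.04, again from the interval of the X median), was 12.1 when replicate 1 alone was required. In replicate 1, 48 of the 88 X sites (54.5%) were at or above the 75th percentile, against 127 of the 560 autosomal sites (22.7%). In replicate 2 the counts were 30 (34.1%) and 207 (37.0%). Part of the difference in replicate 1 was shared by its whole list. Over all nuclear peaks of replicate 1, the median percentile was 56.4 on X and 48.4 on the autosomes. Over all those of replicate 2 it was 51.08 on X and 49.98 on the autosomes. The shares of all peaks at or above the 75th percentile are not given here. Chromosome IV was the highest in replicate 2, with a median percentile of 78.7 and 66 of its 117 sites (56.4%) at or above the 75th. Chromosome III was the lowest in replicate 1, at 40.1.

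**Figure D2:**
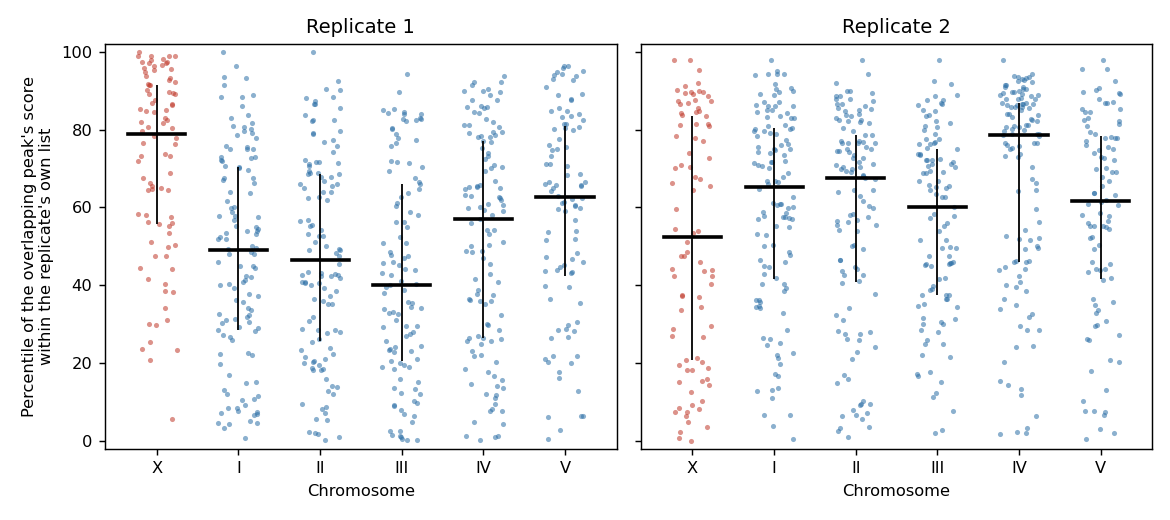
Percentile of the score of the overlapping replicate peak within its own list, for each focal site by chromosome, in replicate 1 (left) and replicate 2 (right); thick bars are medians and thin lines join the quartiles. X has the highest median in replicate 1 (79.0) and the lowest in replicate 2 (52.3).

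The scores of the replicates were ranked alike on X and only weakly so on the autosomes. Across the 88 X sites, Spearman's rho between the scores of replicates 1 and 2 was 0.62, and across the 560 autosomal sites it was 0.14. Score and width of the series-wide peak were related with a rho of 0.56 on X and 0.09 on the autosomes. These are correlations across sites that share libraries and depth, and they are given as descriptions.

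By number, the focal sites were spread over all chromosomes. Chromosome I held 120, II 118, III 109, IV 117, V 96 and X 88. Per Mb of chromosome these are 7.96 on I, 7.72 on II, 7.91 on III, 6.69 on IV, 4.59 on V and 4.97 on X. Chromosome V was the sparsest, at a log2 density of -0.60 relative to the other chromosomes together (95% interval -0.93 to -0.29). It remained below the others when either replicate alone was required. Density on X was 4.97 sites per Mb against 6.78 on the autosomes together, which is -0.45 as a log2 ratio (-0.79 to -0.12). The rest of the series-wide list was sparser still on X, with a log2 ratio of -1.17 for narrow peaks not found in both replicates and -1.05 for peaks of 1200 bp or more found in both. X accordingly held 13.6% of focal sites (95% interval 11.0 to 16.5), against 8.69% (8.01 to 9.41) and 9.41% (6.72 to 12.7) of those peaks. The value of focal sites lies between those of the replicates. Narrow series-wide peaks overlapping replicate 2, whatever replicate 1 held, gave -1.46, and those overlapping replicate 1 gave 0.27, in the opposite direction. The lower density of focal sites on X therefore depends on replicate 2, and it also nearly vanished, at -0.02, when each replicate had to cover 50% of the site. Among narrow peaks that overlapped replicate 1 alone, 146 of 490 (29.8%, 25.8 to 34.1) were on X. Among those that overlapped replicate 2 alone, 131 of 2374 (5.52%, 4.63 to 6.51) were.

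Within chromosomes, autosomes and X followed different courses from end to middle. The extent of each chromosome was divided into 3 equal parts, and the middle part was set against the outer parts. Of the 560 autosomal sites, 205 (36.6%, 95% interval 32.6 to 40.7) were in the middle part, a log2 density of 0.21 over the outer parts (-0.05 to 0.46), so that the interval includes equal density. It did not with the central 50% of the extent as the middle (0.36, 0.12 to 0.61) or with replicate 1 alone required (0.43, 0.24 to 0.63). Of the narrow autosomal peaks not found in both replicates, 38.5% (37.2 to 39.8) were in the middle. Single autosomes varied. The middle held 46.9% of the sites of V (36.6 to 57.3) and 42.2% of those of III (32.8 to 52.0), but 26.5% of those of IV (18.8 to 35.5). Chromosomes I, at 36.7%, and II, at 33.1%, were between.

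On X the middle part held 19 of 88 sites (21.6%, 95% interval 13.5 to 31.6), a log2 density of -0.86 over the outer parts (-1.68 to -0.11). Narrow X peaks not found in both replicates had 32.4% in the middle (28.5 to 36.5). Among these, the share was 19.1% (12.7 to 26.9) for peaks found in replicate 2 only, near that of focal sites. It was 41.8% (33.7 to 50.2) for peaks found in replicate 1 only and 33.8% (28.2 to 39.8) for those found in neither. With replicate 2 alone required, the log2 density on X was -0.99 (-1.50 to -0.51). With replicate 1 alone required it was 0.06 (-0.35 to 0.45), an interval that includes equal density, so the sparse middle of X rests on replicate 2. In steps of 10% of the extent from the nearer end, X carried 7.05, 5.08, 5.08, 4.51 and 3.10 focal sites per Mb. The autosomes carried 5.69, 5.57, 7.15, 7.39 and 8.12 per Mb in the same steps. The outermost step on X held 25 sites and the innermost 11.

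**Figure D3:**
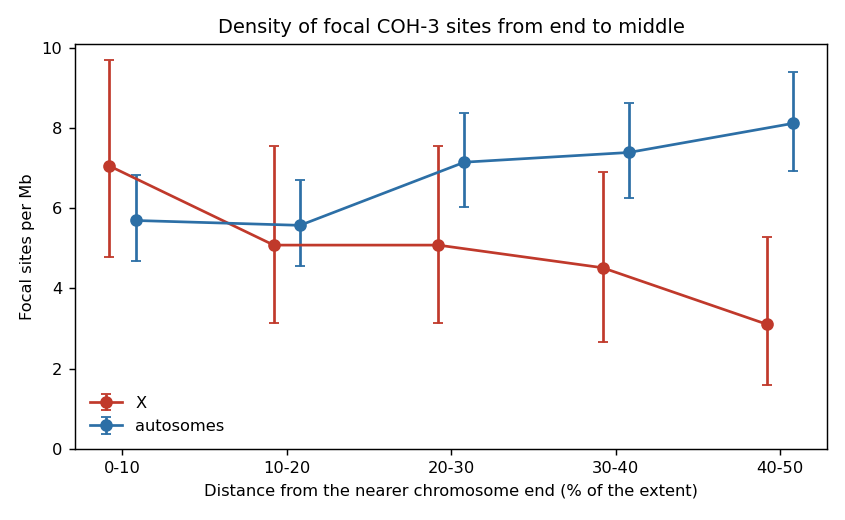
Focal sites per Mb in 5 zones from the chromosome end (left) to the middle (right), each covering 10% of the extent on both sides, for X and the autosomes. Bars are 95% Clopper-Pearson intervals for counting error; density falls from 7.05 to 3.10 per Mb on X and runs from 5.69 to 8.12 on the autosomes.

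By series-wide score, the strongest autosomal sites were in the middle part less often than the other autosomal sites. In the highest of the 4 classes by series-wide score, 29 of 129 autosomal sites (22.5%, 95% interval 15.6 to 30.7) were in the middle part. In the other 3 classes, from the lowest upwards, the shares were 38.8%, 46.2% and 37.5%. Chromosome IV, the autosome with the lowest middle share, gave 38 of the 129 sites, and each other autosome gave 14 to 27. Chromosome was not separated from position here. Ranked by the score of replicate 2, the middle share was 51.2% (42.2 to 60.1) in the lowest class and 21.7% (15.2 to 29.6) in the highest. Ranked by the score of replicate 1, it was 31.2% (24.1 to 39.1) in the lowest and 35.3% (26.7 to 44.8) in the highest, so that library did not show this order. The X share also ran opposite ways in the replicates, with 3.09% in the lowest and 28.4% in the highest class of replicate 1, and 20.4% and 14.8% in those of replicate 2.

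**Figure D4:**
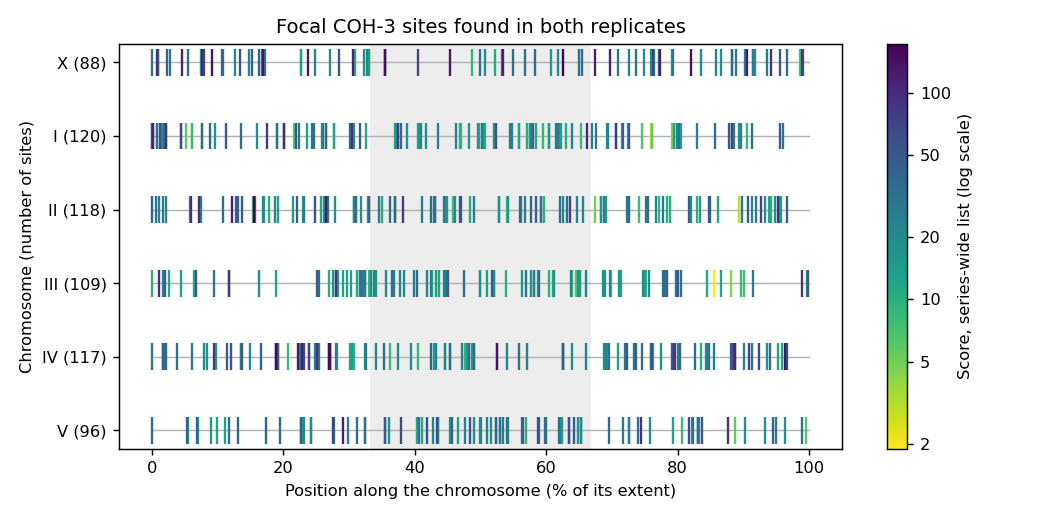
Position of each of the 648 focal sites along its chromosome, as a percentage of the chromosome's extent, coloured by series-wide score (log scale); the shaded band is the middle part. X (88 sites) has 19 in its middle part, and this sparse middle rests on replicate 2. The left end of every chromosome carries a site.

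A focal site stood at the left end of all 6 chromosomes. Each began at base 1, with an end at base 498 on I, 440 on II, 220 on III, 240 on IV, 364 on V and 354 on X. Their scores were 56.05 on I, 45.35 on II, 9.53 on III, 31.9 on IV, 36.48 on V and 29.96 on X. In replicate 1 the scores of the terminal peaks ran from 383.9 on IV to 1597.16 on I, and in replicate 2 from 340.5 on III to 2257.24 on I. The last series-wide peak of each chromosome was 304 to 772 bp wide, with scores of 12.14 on X to 45.43 on I. The right end of each extent was set by the farthest peak end, so these peaks touch it by definition. Whether they reached the true chromosome ends was not tested. None of these 6 was a focal site. Replicate 1 overlapped none of them, and replicate 2 overlapped 1, on IV, with a score of 431.4. How the peak caller treated reads at the right ends was not tested. Chromosome I was also the most crowded near its left end, with 16 focal sites in its first Mb, against 1 to 8 in the first Mb of the other chromosomes. Those 16 include close neighbours that were parts of 1 replicate peak. The sites from 1 to 498 and 677 to 1128 shared a peak of replicate 2. Those from 108385 to 108969 and 109085 to 109557 shared a peak of replicate 1.

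The spacing of focal sites follows in part from their number and is given as a description. The 642 gaps between neighbours on the same chromosome had a median of 94.9 kb (quartiles 34.3 and 218.1 kb). The median gap was 176 kb on X and 88.9 kb on the autosomes, where it ran from 72.5 kb on I to 144.8 kb on V. A smaller set lay close together: 167 sites (25.8%, 95% interval 22.4 to 29.3) had another focal site within 10 kb, and 91 (14.0%, 11.5 to 17.0) within 2 kb. Joined at gaps under 10 kb, the sites formed 71 pairs, 7 groups of 3 and 1 group of 4, and 481 sites stood alone. Some close neighbours were parts of 1 replicate peak: 12 sites shared their highest overlapping peak in replicate 1 with another site, and 16 did so in replicate 2. When series-wide peaks closer than 500 bp were merged first, 12.4% of sites had another within 10 kb. With 1 replicate alone required the sites were more numerous, and the median gap was 12.1 kb (replicate 2) or 45.8 kb (replicate 1), with 68.8% or 45.0% of sites within 10 kb of another.

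**Figure D5:**
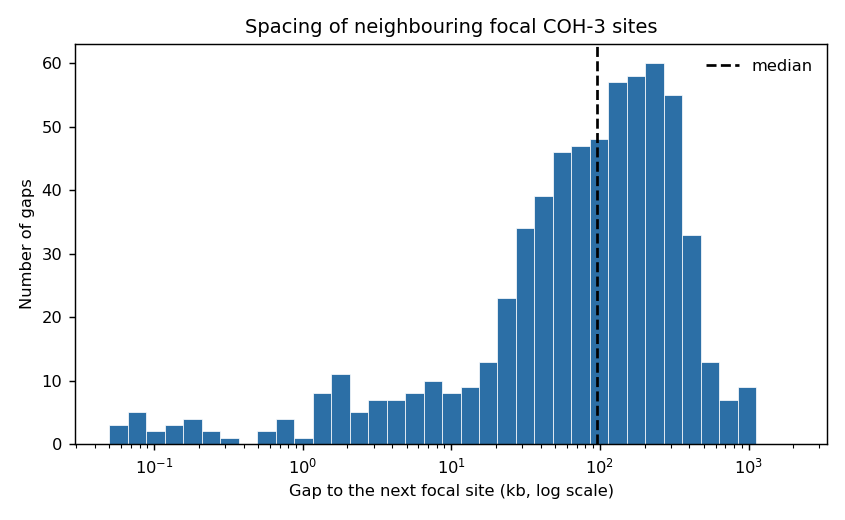
Number of gaps between neighbouring focal sites on the same chromosome by gap length (log axis); the dashed line is the median, 94.9 kb. Most gaps lie above 10 kb, with a tail of shorter gaps down to 51 bp.

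Neighbouring focal sites were ranked more alike in score at short gaps, but the ratio of their scores was not smaller there. The scale of the score is not named, so the ratio is a description only. The median absolute log2 ratio of their series-wide scores was 0.93 over the 46 pairs with gaps under 2 kb, 0.89 over the 88 pairs with gaps under 10 kb and 0.87 over the 554 pairs with gaps of 10 kb or more. Spearman's rho between the scores was 0.43, 0.30 and 0.11 over the same pairs, a description across sites of the same libraries. The most crowded 100 kb held 6 focal sites, on chromosome III from 6116471 to 6211073, with scores of 8.83 to 47.94. The longest stretch without one, 1104 kb, ran on chromosome V from 365 to 1104546, directly after its terminal site. It contained 29 other peaks of the series-wide list, 5 peaks of replicate 1 and 17 of replicate 2. Each full 1 Mb bin of the 6 chromosomes carried between 1 and 17 focal sites.

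Focal sites lay somewhat farther from other series-wide peaks than the other narrow peaks did. The nearest other series-wide peak of any kind lay a median of 1279 bp away, and 389 sites (60.0%) had one within 2 kb. For narrow peaks not found in both replicates the median was 796 bp and the share 63.6%. The nearest peak of 1200 bp or more lay a median of 65.3 kb from a focal site and 58.3 kb from the other narrow peaks. It was within 10 kb of 106 focal sites (16.4%) and of 19.3% of the other narrow peaks. These distances are pooled over chromosomes. X, where the list is sparser, held 13.6% of focal sites and 8.69% of the other narrow peaks, and this mix was not separated.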

How the data were processed

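Peak lists of 2 ChIP replicates and of the whole series were analysed; the input libraries were not analysed here. The submitters' processing notes name BWA and the build ce10. Peaks of the replicates were called with MACS and those of the series-wide list with MACS v2, on WormBase WS220, per the file headers and source columns. The score of a peak is the authors' deposited value on an unnamed scale, and its start and end are 1-based. Threshold, use of input and the construction of the series-wide list were not given in the sources used here, and that list is not independent of the replicates. Read depth is unknown, and a longer list may reflect deeper sequencing. Replicate 1 had 1812 nuclear peaks and replicate 2 had 3332; mitochondrial peaks (3 in the series-wide list, 1 in replicate 1) were left out. Other samples' columns numbered 0.

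Chromosome extents were set by the farthest peak end over the 3 lists (100.3 Mb summed) and are approximate. Overlap required 1 bp, and gaps are counted from the end of a site to the start of the next. Percentiles count ties by their middle. The software was pandas 2.3.3, numpy 2.4.6 and scipy 1.17.1 under Python 3.11.15, with matplotlib 3.10.9 for plots; overlap, gap and density steps were tested on simulated data. Sites named are the 10 with the highest score, the highest of each chromosome, those at the width limits, the longest gap and the densest 100 kb; the strong pairs on IV, the terminal sites and the counts among the highest 20 and 50 were chosen after their values were seen. The members and lists were chosen with earlier results of these data known. Genes and sequences were not assigned, since the gene table follows another assembly, WBcel235. Alternatives were 50% coverage by each replicate, width limits of 800 and 2000 bp, the better-scoring 50% of the series-wide list, merging below 500 bp, each replicate alone, chromosome ends left out, covered bases, other middle and neighbour limits, and, added after the data were examined, sites with 1 narrow peak in each replicate.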

Additional observations from a re-analysis of the deposited data

How the results depend on the processing

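With 1 replicate alone required, the number of sites ran from 1138 to 3022, the median score from 10.19 to 14.85, the median gap from 12.1 to 45.8 kb and the share with a neighbour within 10 kb from 45.0% to 68.8%. The log2 density of X over autosomes ran from -1.46 (replicate 2) to 0.27 (replicate 1), and that of the middle of X from -0.99 to 0.055, so both reversed with replicate 1 alone. Chromosome I, at 0.36 against the other chromosomes, ran from -0.00058 (replicate 1 alone) to 0.59 (replicate 2 alone). The X minus autosome difference in median score, 8.28, ran from 0.09 (replicate 1 alone) to 3.16 (replicate 2 alone), in sets with lower median scores. The difference in replicate 1 percentile, 28.9, fell to 12.09 for all series-wide narrow peaks that overlapped that replicate. The cause was not tested. Covering 50% of the site in each replicate moved the X density to -0.021, the median gap to 143.9 kb and the share within 10 kb to 18.97%. Width limits of 800 and 2000 bp gave gaps of 139.1 and 69.9 kb and shares of 17.98% and 32.1%; the 800 bp limit lowered the X difference in score to 5.01, and the 2000 bp limit raised the median score to 26.33. Merging gave 143.0 kb and 12.4%, and sites with 1 narrow peak in each replicate gave 115.6 kb and 20.2%. Neighbour limits of 2 and 50 kb gave 14.0% and 56.3%. The number of X sites among the highest 50 ran from 12 to 20 over these alternatives, and the log2 density of the autosomal middle from 0.08 to 0.43. Leaving out chromosome ends or the lower-scoring 50% of the list moved none of these values beyond its interval. No paired analysis was possible because no values of the input libraries, which share the replicate numbers, were used.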
